A study of Danio rerio with 9 samples.

Results

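Transcripts of the enzymes that write and erase methyl groups on histones and DNA, and of the histone deacetylases, were examined in zebrafish larvae exposed to perfluorononanoic acid (PFNA). The genes were taken by symbol, as every gene whose name began with kdm, kmt, setd, ezh, hdac, dnmt or tet and fitted these families, which gave 66 genes of the 19852 in the deposited tables. They comprised 31 writers, 23 erasers (20 lysine demethylases and 3 TET dioxygenases) and 12 deacetylases, and all 66 were present in the tables of both concentrations. Roles were given by family. The writers thus include kmt2e, which binds H3K4 methylation, and setd3, which methylates actin. No particular mark was assigned to setd4, setd5, setd6 and setd9 among the writers or to kdm8 among the erasers. The 66 genes carried 65 symbols, because the tables gave the name hdac8 to ENSDARG00000003021 and to ENSDARG00000105159, and the gene name table calls the latter phka1a, a regulatory subunit of glycogen phosphorylase kinase. It was kept under the symbol of the tables, and its values are reported separately. PFNA is a long-chain perfluoroalkyl acid. Exposure of AB x Tübingen fish began with fertilized embryos and lasted 7 days, after which whole larvae were collected. The fish were exposed to 0.1% dimethyl sulfoxide (DMSO, the vehicle control), to 0.1 µg/L PFNA or to 10 µg/L PFNA. DMSO was the carrier in all groups. Each group had 3 RNA-seq libraries, and each library was a pool of 14 to 15 larvae from a beaker. Because RNA came from whole larvae, fewer cells of a type and less RNA per cell cannot be told apart.

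Histone tails carry methyl and acetyl groups that are added by writers, removed by erasers and bound by reader proteins. Methylation of H3K4 and H3K36 is found at active genes, whereas methylation of H3K27, H3K9 and H4K20 is associated with repressed chromatin, and removal of acetyl groups by deacetylases is generally repressive. DNA methyltransferases place methyl groups on cytosine, and TET dioxygenases oxidize them toward removal. Many of these enzymes exist in zebrafish as duplicated copies, named with a final a or b, which arose in the genome duplication of teleost fish.

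The libraries held 14491289 to 23963715 reads on genes. The first principal component of all genes carried 51.4% of the variance and did not separate the 10 µg/L libraries from all controls: DMSO replicate 3 (41.89) lay with the 10 µg/L libraries (39.55 to 51.41), 0.1 µg/L replicate 2 (19.41) lay toward them, and the other DMSO and 0.1 µg/L libraries lay between -68.73 and -31.06. DMSO replicate 3 was also the only control that shared its first sequencing index with the 6 PFNA libraries. Defining markers of muscle, liver, gut and exocrine pancreas, skin, neurons and proliferating cells were all measured, as were 3 of 6 blood markers. The mean log2 level of 15 neuron markers, relative to the mean of all libraries, was 0.35, 0.33 and -0.57 in DMSO, 0.40, -0.15 and 0.27 at 0.1 µg/L and -0.25, -0.19 and -0.20 at 10 µg/L. Neuron markers were thus low in DMSO replicate 3 and in 0.1 µg/L replicate 2. The same mean for 8 liver markers ran from -1.02 in DMSO replicate 2 to 0.79 in 10 µg/L replicate 1. The part of these differences in the results below was not tested.

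At 10 µg/L, transcripts of the demethylases kdm2ba, kdm2bb and kdm4aa and of the deacetylase hdac9b were higher than in DMSO at an unadjusted limma p under 0.05. Those of the methyltransferases kmt2bb and kmt2cb were lower at that threshold. Such calls were a smaller share of these enzymes than of all genes, as given below. Differences were estimated with limma on log2(normalised reads + 1), where normalised reads are read counts divided by the size factor of the library. Of the 66 genes, 6 had an unadjusted p under 0.05 (4 higher and 2 lower), a share of 9.09% against 13.1% of all 19610 genes tested (7.91% higher and 5.21% lower). None passed an adjusted p of 0.05 in limma (Benjamini-Hochberg over all genes), where 0.0% of all genes passed. With DESeq2 on the recovered read counts, 2 of the 66 genes passed (kdm2ba and hdac9b), against 1.17% of all genes. With edgeR's quasi-likelihood test 0 of 66 passed, and 0 of all 19610 genes did. In that test 8 of the 66 had an unadjusted p under 0.05, beside 2505 of all 19610 genes. For 7 of the 66 genes, all 3 values at 10 µg/L exceeded all 3 control values, and for none were they all lower, a share without overlap of 10.6% against 18.0% over all genes. The share at an unadjusted p under 0.05 and the share without overlap were both below those of all genes. Without DMSO replicate 3, 6 of the 66 genes passed the adjusted threshold in limma, against 11.2% of all genes, namely kdm2ba, hdac9b, kdm2bb, kmt2cb, kmt2bb and kdm6bb. Without replicate 2 at 10 µg/L, the count at an unadjusted p under 0.05 was 2, and the share of all genes in that fit is not given here. With the first index as a covariate, which leaves DMSO replicate 3 as the only control compared, 7 of the 66 genes had an unadjusted p under 0.05, against 10.5% of all genes: kdm2ba, hdac9b, kdm5ba, tet3, dnmt1 and kmt5b were higher and setd7 lower.

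**Figure D1:**
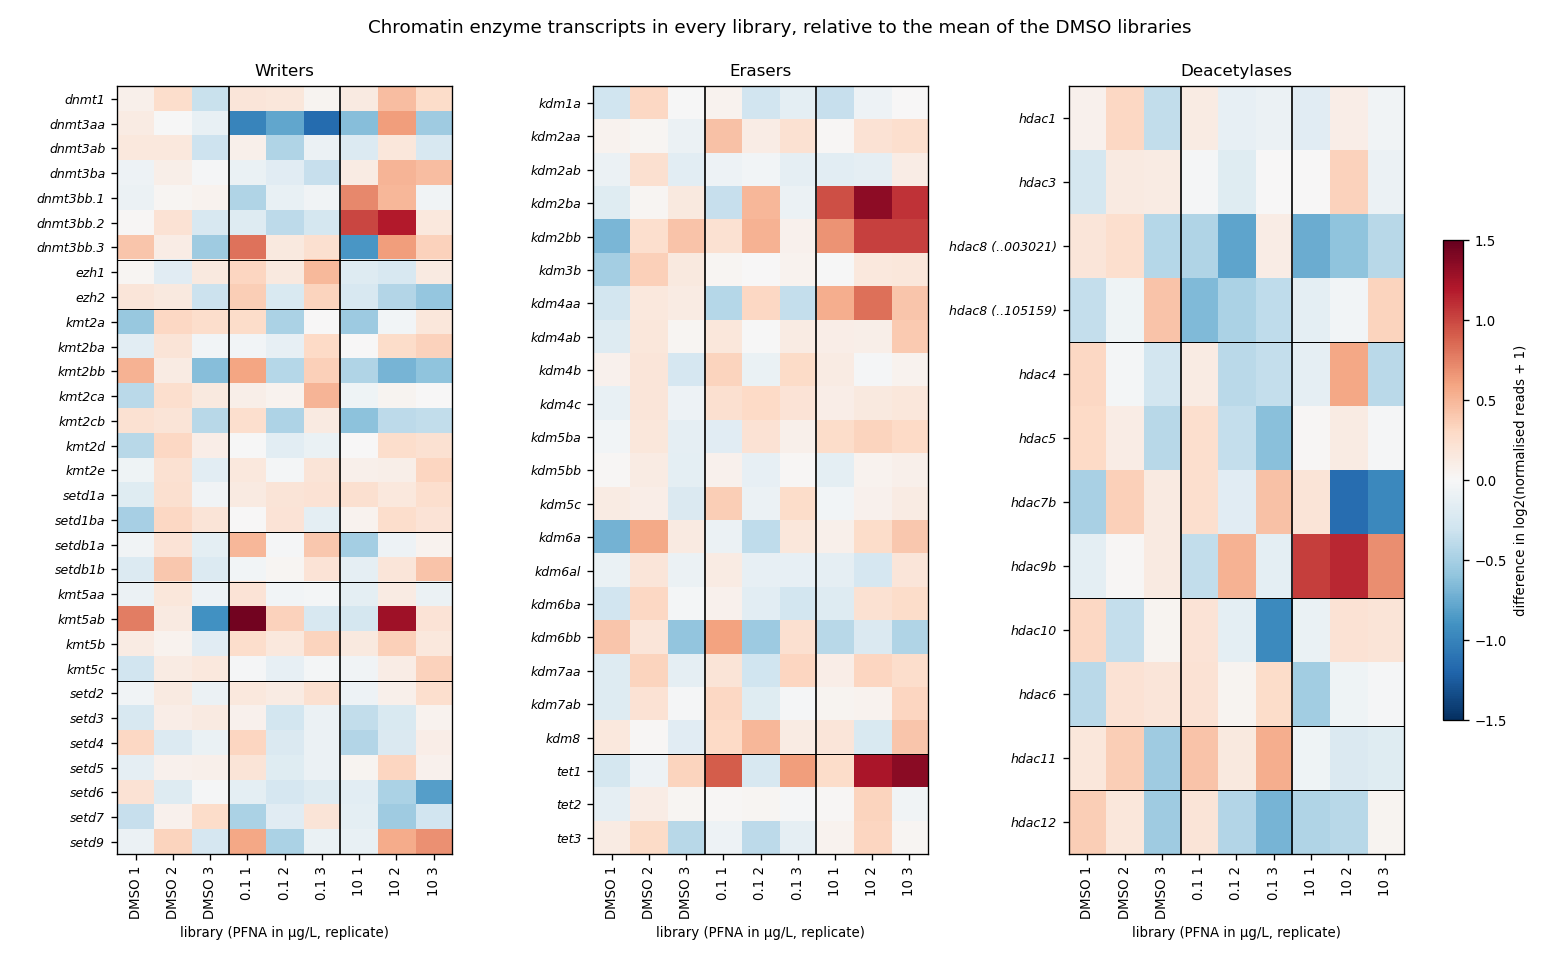
log2(normalised reads + 1) of the 66 genes (rows, grouped by enzyme class and divided by lines) in the 9 libraries (columns), as the difference from the mean of the 3 DMSO libraries, with colours limited to differences of 1.5 in either direction. The rows of kdm2ba, kdm2bb, kdm4aa and hdac9b are red in the 3 libraries at 10 µg/L, whereas most rows show no block of colour by group.

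Among the erasers, 18 of 23 (78.3%) were higher than DMSO at 10 µg/L by fitted value, against 50.8% of all genes. The median log2 fold change was 0.12 against 0.0065 over all genes tested, and 3 had an unadjusted p under 0.05, about the same share as the 13.1% of all genes. These 3 were kdm2ba, kdm2bb and kdm4aa. kdm2ba (ENSDARG00000036593) is one of the zebrafish copies of KDM2B, an H3K36 demethylase whose zinc finger binds CpG islands in mammals and brings a variant Polycomb repressive complex to them. Its normalised reads were 193, 222 and 242 in DMSO, 172, 309 and 205 at 0.1 µg/L and 428, 554 and 463 at 10 µg/L. All 10 µg/L libraries lay above all others, and 0.1 µg/L replicate 2 was the highest of the remaining 6. The level at 10 µg/L was 2.17-fold that of DMSO (log2 fold change 1.12, SE 0.17, n = 3 per group, limma adjusted p = 0.22), and kdm2ba ranked 4 of 19610 genes by p. DESeq2 gave an adjusted p of 0.00029, and the fold change ranged from 1.02 to 1.20 on the log2 scale when any library was left out. Against DMSO replicate 3 alone, by the first index fit, it was 0.97.

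kdm2bb (ENSDARG00000046010), the other copy of KDM2B, had 34.9, 67.8 and 76.5 in DMSO, 66.4, 81.8 and 59.3 at 0.1 µg/L and 91.3, 117 and 116 at 10 µg/L. The 10 µg/L libraries were again above the rest, but DMSO replicate 1 was low at 34.9, and the DMSO libraries spread over more than the difference between 0.1 µg/L and DMSO. Its log2 fold change at 10 µg/L was 0.90 (SE 0.31, limma adjusted p = 0.29), and it was 0.56 without DMSO replicate 1. RefSeq places kdm2bb over orai1b, a calcium channel gene, and whether reads of the overlap were assigned to either gene was not tested. The KDM2A copies, which demethylate the same residue, differed little from DMSO. kdm2aa had 662, 656 and 604 in DMSO and 646, 746 and 762 at 10 µg/L (log2 fold change 0.15), and kdm2ab had 568, 715 and 540.4 in DMSO and 541, 549.8 and 651 at 10 µg/L (-0.07). Groups overlapped for both. The mean log2 level of the 4 KDM2 genes, relative to the mean of all libraries, was -0.44, -0.08 and -0.13 in DMSO, -0.16, 0.06 and -0.20 at 0.1 µg/L and 0.16, 0.40 and 0.40 at 10 µg/L.

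kdm4aa, a copy of the H3K9 and H3K36 demethylase KDM4A, had 152, 205 and 200.1 in DMSO, 137, 228 and 144 at 0.1 µg/L and 268, 327 and 245 at 10 µg/L. The 10 µg/L libraries were all higher than the others, and replicate 2 was again the highest of the 0.1 µg/L libraries. The log2 fold change at 10 µg/L was 0.58 (SE 0.19, limma adjusted p = 0.28). Unlike kdm2ba and kdm2bb, kdm4aa did not pass the adjusted threshold in limma without DMSO replicate 3. Its copy kdm4ab and the related kdm4b and kdm4c had log2 fold changes of 0.18, 0.04 and 0.13, with overlapping groups. Of the 3 KDM5 genes, which demethylate H3K4, kdm5ba had non-overlapping groups, with 1259, 1464 and 1183 in DMSO and 1572, 1630 and 1591 at 10 µg/L (log2 fold change 0.29, limma adjusted p = 0.42), whereas kdm5bb (-0.02) and kdm5c (0.04) were close to zero. kdm1a, the amine oxidase LSD1 that acts on H3K4, had a log2 fold change of -0.15. The others were kdm3b (0.10), which acts on H3K9, kdm7aa (0.22) and kdm7ab (0.13), which act on H3K9 and H3K27, and kdm8 (0.11), and all overlapped with DMSO.

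The H3K27 demethylases included kdm6bb, a copy of KDM6B, which had 1625, 1379 and 809.8 in DMSO, 1852, 833 and 1441 at 0.1 µg/L and 915, 1051 and 889.6 at 10 µg/L. Its 3 libraries at 10 µg/L were low, and DMSO replicate 3 and 0.1 µg/L replicate 2 were lower still, so that the groups overlapped. The log2 fold change was -0.37 (SE 0.24, limma adjusted p = 0.53), and -0.67 without DMSO replicate 3 (limma adjusted p = 0.015). It was -0.16 without DMSO replicate 1 (limma adjusted p = 0.85). Against DMSO replicate 3 alone, by the first index fit, it was 0.22. kdm6ba (0.09), kdm6a (0.24) and kdm6al (-0.08) did not share this pattern by library. The 3 TET dioxygenases were each higher by fitted value at 10 µg/L, none with an unadjusted p under 0.05 in this fit. tet1 was sparsely read, with 7.58, 8.75 and 12.0 in DMSO, 18.2, 7.70 and 14.8 at 0.1 µg/L and 11.4, 23.0 and 25.3 at 10 µg/L, and its log2 fold change of 0.94 had an SE of 0.50. tet2 had 508, 600.2 and 568 in DMSO and 564, 704 and 539 at 10 µg/L (0.09), and tet3 had 368, 411 and 253 in DMSO and 349, 420.4 and 344 at 10 µg/L (0.12), and for these and tet1 the groups overlapped.

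**Figure D2:**
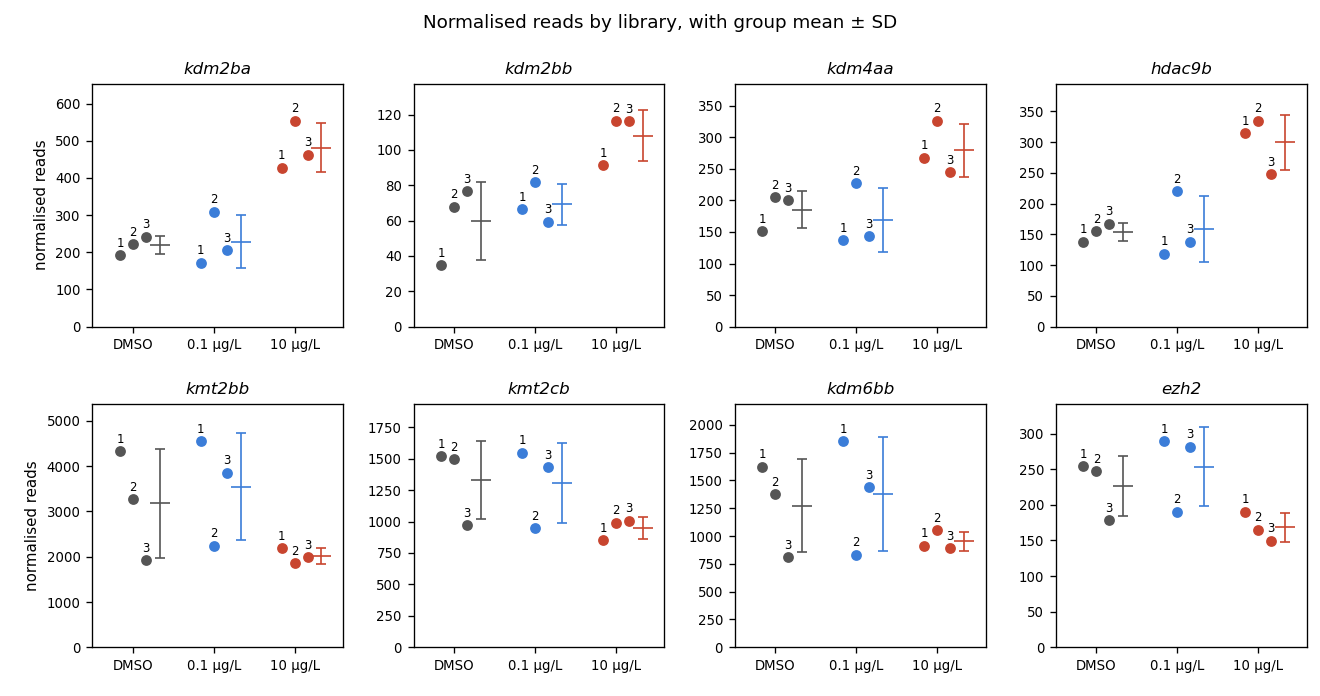
Normalised reads (vertical axis, from 0) of 8 genes in the 9 libraries, by group; points are libraries labelled with the replicate number, and bars are the mean ± SD of 3 libraries. The upper row shows kdm2ba, kdm2bb, kdm4aa and hdac9b, with all 10 µg/L libraries above the other 6, and the lower row shows kmt2bb, kmt2cb, kdm6bb and ezh2, for which DMSO replicate 3 and 0.1 µg/L replicate 2 lie near the 10 µg/L libraries.

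Of the 31 writers, 17 were higher than DMSO at 10 µg/L by fitted value (54.8% against 50.8% of all genes, median log2 fold change 0.07). The 24 that are not DNA methyltransferases were 12 higher and 12 lower (median 0.03), and the DNA methyltransferases are described below. The 2 writers with an unadjusted p under 0.05, a share of 6.45% against 13.1% of all genes, were both lower H3K4 methyltransferases. kmt2bb (ENSDARG00000060697) is a copy of KMT2B, which trimethylates H3K4 at promoters. Its normalised reads were 4332, 3272 and 1928 in DMSO, 4549, 2246 and 3855 at 0.1 µg/L and 2195, 1859 and 1988 at 10 µg/L. The libraries at 10 µg/L were uniformly low, but DMSO replicate 3 lay among them and 0.1 µg/L replicate 2 lay just above them. The level at 10 µg/L was 0.66-fold that of DMSO (log2 fold change -0.60, SE 0.26, limma adjusted p = 0.37). It was -0.33 without DMSO replicate 1 (limma adjusted p = 0.68). Leaving out DMSO replicate 3 gave -0.92 (limma adjusted p = 0.0062), and the first index fit, against DMSO replicate 3 alone, gave 0.05.

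kmt2cb, a copy of KMT2C, which monomethylates H3K4 at enhancers, was low in the same libraries. It had 1520, 1494 and 973 in DMSO, 1549, 945 and 1431 at 0.1 µg/L and 850.1, 992 and 1008 at 10 µg/L, so that DMSO replicate 3 and 0.1 µg/L replicate 2 overlapped with the 10 µg/L libraries. Its log2 fold change was -0.47 (SE 0.19, limma adjusted p = 0.35), -0.68 without DMSO replicate 3 (limma adjusted p = 0.011) and -0.04 in the first index fit. For kmt2bb, kmt2cb and kdm6bb, neuron markers were low in the same libraries, and their part in these differences was not tested. The other H3K4 writers did not show this pattern. kmt2a (-0.15), kmt2ba (0.20), kmt2ca (-0.02), kmt2d (0.16), setd1a (0.21) and setd1ba (0.16) all had overlapping groups, as did kmt2e (0.15), a relative that binds H3K4 methylation. setd7, which monomethylates H3K4 and other proteins, had 569.9, 761 and 881 in DMSO and 655, 503 and 593 at 10 µg/L (-0.33), and its log2 fold change was -0.61 in the first index fit (limma adjusted p = 0.28).

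The catalytic subunits of Polycomb repressive complex 2, ezh1 and ezh2, write H3K27 methylation, and neither passed the unadjusted threshold against DMSO. ezh2 had 255, 247 and 179 in DMSO, 289, 191 and 282 at 0.1 µg/L and 190.2, 165 and 149.8 at 10 µg/L. Its values at 10 µg/L reached 190.2, above DMSO replicate 3 at 179, and the log2 fold change was -0.43 (SE 0.20, limma adjusted p = 0.41). ezh1 had 503, 439 and 548 in DMSO, 621, 548 and 693 at 0.1 µg/L and 431, 419 and 544 at 10 µg/L (log2 fold change -0.11 at 10 µg/L). The mean of ezh1 and ezh2 relative to all libraries was 0.11, -0.01 and -0.08 in DMSO, 0.35, -0.03 and 0.41 at 0.1 µg/L and -0.21, -0.33 and -0.21 at 10 µg/L. By this mean, the 10 µg/L libraries were the lowest of the 9 libraries.

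Of the 7 DNA methyltransferases, 5 were higher than DMSO at 10 µg/L by fitted value (71.4% against 50.8% of all genes, median 0.28). None had an unadjusted p under 0.05, against 13.1% of all genes. dnmt1, which maintains methylation after replication, had 417, 472 and 312 in DMSO and 435, 544 and 478 at 10 µg/L (log2 fold change 0.28, SE 0.19). Groups overlapped through DMSO replicate 2, and the first index fit gave 0.63 (limma adjusted p = 0.28). The remaining 6 are de novo enzymes. dnmt3ba, related to mammalian DNMT3B, had 236, 265 and 246 in DMSO, 232, 220.3 and 195 at 0.1 µg/L and 270.1, 353 and 344 at 10 µg/L. Its groups did not overlap at either concentration: it was lower than DMSO at 0.1 µg/L (log2 fold change -0.21, limma adjusted p = 1.00) and higher at 10 µg/L (0.35, limma adjusted p = 0.41). dnmt3bb.1 had 114, 124 and 126 in DMSO and 199.7, 172 and 117 at 10 µg/L (0.38), where replicate 3 at 10 µg/L lay within the control range. dnmt3bb.2 had 18.2, 21.2 and 15.1 in DMSO and 37.1, 42.2 and 20.2 at 10 µg/L (0.77, SE 0.40), and dnmt3bb.3 had 36.4, 29.2 and 18.3 in DMSO and 14.3, 42.2 and 34.5 at 10 µg/L (0.02). RefSeq places these 3 side by side as tandem copies, and because only uniquely mapped reads were counted, how their reads divide between the copies is uncertain. dnmt3ab had a log2 fold change of -0.11. dnmt3aa was too sparse to be tested at 0.1 µg/L, with 15.2, 13.9 and 12.8 in DMSO, 6.51, 7.70 and 5.70 at 0.1 µg/L and 8.56, 22.0 and 9.26 at 10 µg/L, so that its 0.1 µg/L libraries were the lowest of the groups in normalised reads.

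The writers of H4K20 and H3K9 methylation differed little from DMSO. kmt5b, which writes the higher methylation states of H4K20, had non-overlapping groups at 10 µg/L, with 768, 727 and 623 in DMSO and 781, 902 and 785 at 10 µg/L (log2 fold change 0.21, limma adjusted p = 0.58). kmt5c (0.12), kmt5aa (-0.05) and the sparse kmt5ab (0.40, SE 0.54) overlapped with the controls. setdb1a and setdb1b, copies of an H3K9 methyltransferase, had log2 fold changes of -0.19 and 0.15. setd2, which places the third methyl group on H3K36, was at 0.07, and setd3, which methylates actin, at -0.19. The range over setd4, setd5, setd6 and setd9 ran from -0.49 for setd6 to 0.37 for setd9, with overlapping groups.

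Among the 12 deacetylases, 6 were higher and 6 lower than DMSO at 10 µg/L by fitted value, with a median log2 fold change of -0.02. The 6 higher include ENSDARG00000105159, which also carries the name phka1a. Only hdac9b of the 12 deacetylases had an unadjusted p under 0.05 (8.33% against 13.1% of all genes). hdac9b (ENSDARG00000056642), a class IIa deacetylase of the type that represses MEF2 target genes in mammals, had 138, 155 and 167 in DMSO, 118, 220.3 and 138 at 0.1 µg/L and 315, 335 and 248 at 10 µg/L. The libraries at 10 µg/L were all above the other 6, and 0.1 µg/L replicate 2 was the next highest. The level at 10 µg/L was 1.92-fold that of DMSO (log2 fold change 0.94, SE 0.19, limma adjusted p = 0.22, DESeq2 adjusted p = 0.011), ranking 35 of 19610 genes by p. It was 1.01 without DMSO replicate 3 and 0.82 in the first index fit. The other class IIa genes did not follow it: hdac4 (0.0042) and hdac5 (0.03) were near zero, and the sparse hdac7b was at -0.65 (SE 0.53), each with overlapping groups.

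Of the class I deacetylases, hdac1 and hdac3 encode catalytic subunits of nuclear corepressor complexes. hdac1 had 2469, 2914 and 1824 in DMSO, 2562, 2163 and 2217 at 0.1 µg/L and 2091, 2519 and 2283 at 10 µg/L (log2 fold change at 10 µg/L -0.05, SE 0.19). hdac3 had 256, 338 and 333 in DMSO, 302, 271 and 308 at 0.1 µg/L and 309, 390.1 and 288 at 10 µg/L (0.08, SE 0.19). Neither differed between groups by more than the spread between libraries. hdac8 under ENSDARG00000003021 had 89.4, 94.1 and 58.2 in DMSO, 57.3, 45.2 and 85.5 at 0.1 µg/L and 46.6, 51.4 and 58.9 at 10 µg/L. Its 10 µg/L libraries were low, with replicate 3 just above DMSO replicate 3, and the log2 fold change was -0.60 (SE 0.28, limma adjusted p = 0.39). The ID ENSDARG00000105159, which the gene name table calls phka1a, had 239.5, 295 and 415 in DMSO, 194, 222 and 236 at 0.1 µg/L and 278, 298 and 387 at 10 µg/L, a log2 fold change of 0.03 at 10 µg/L. The remaining deacetylases were hdac6 (-0.21), which acts on tubulin, hdac10 (0.09), a polyamine deacetylase, hdac11 (-0.17), of class IV, and hdac12 (-0.29), and all overlapped with DMSO.

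**Figure D3:**
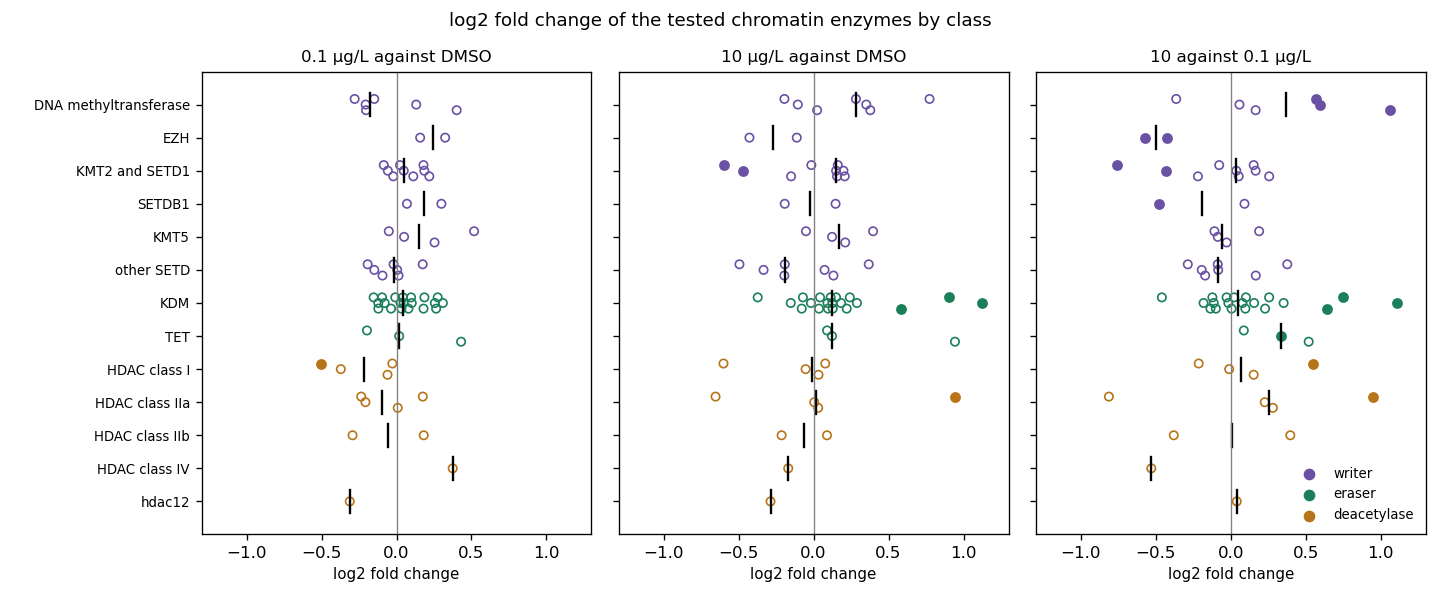
log2 fold change (horizontal axis) of each tested gene by enzyme class (rows) in the 3 comparisons; points are genes, filled where the unadjusted limma p is under 0.05, black bars are class medians, and colours give the role. At 0.1 µg/L 1 point is filled, at 10 µg/L against DMSO 6 are, and at 10 against 0.1 µg/L 14 are, with the DNA methyltransferase median at 0.37 and the EZH median at -0.50.

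At 0.1 µg/L, 1 of the 65 genes tested had an unadjusted p under 0.05 against DMSO (1.54% against 1.57% of all 19065 genes), and it was the ID ENSDARG00000105159 (log2 fold change -0.50, SE 0.22, limma adjusted p = 1.00). This call was lost when any library other than DMSO replicate 1 was left out, and the log2 fold change was -0.29 without DMSO replicate 3. None of the 65 genes passed the adjusted threshold in limma, edgeR or DESeq2, and 0 of all 19065 genes did in any of them. Each of these tools had 1 gene at an unadjusted p under 0.05, beside 299, 311 and 268 of all genes. The groups did not overlap for 6 genes (4 higher and 2 lower), which is 9.23% against 6.63% of all genes. These were ezh1 (0.32), kdm2aa (0.26), kmt5b (0.25) and kdm4c (0.26), which were higher, and dnmt3ba (-0.21) and ENSDARG00000105159, which were lower. kdm2aa had 662, 656 and 604 in DMSO and 867, 694 and 750.1 at 0.1 µg/L, whereas kdm2ba (0.03) and hdac9b (0.01) were close to zero. Median log2 fold changes were 0.04 for writers, 0.04 for erasers and -0.13 for deacetylases, of which 8 of 12 were lower by fitted value. These 8 include ENSDARG00000105159. With the first index as a covariate, 3 of 65 genes had an unadjusted p under 0.05, against 11.5% of all genes (ENSDARG00000105159 lower, dnmt1 and kmt5b higher), and the deacetylase median was 0.05.

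The 10 µg/L and 0.1 µg/L libraries were compared on a common scale over the 9 libraries. These libraries also entered the comparisons with DMSO, so that the 3 comparisons are not independent. Of the 65 genes tested, which leave out the sparse dnmt3aa, 14 had an unadjusted p under 0.05 (21.5% against 25.7% of all 18965 genes). The 9 that were higher at 10 µg/L compare with 14.2% of all genes and the 5 that were lower with 11.5%. Groups did not overlap for 18 genes (11 higher and 7 lower), 27.7% against 28.7% of all genes. None passed the adjusted threshold in limma, where 0.0% of all genes passed, nor in edgeR, where 0 of all 18965 genes passed. The latter had 15 at an unadjusted p under 0.05, beside 4698 of all 18965 genes. With DESeq2, 5 genes passed, against 8.97% of all genes: kdm2ba, hdac9b, kdm4aa, kmt2bb and dnmt3ba. Without 0.1 µg/L replicate 2, 13 genes passed in limma, against 27.0% of all genes. The count at an unadjusted p under 0.05 was 9 without 0.1 µg/L replicate 3 and 8 without 10 µg/L replicate 2. Shares of all genes in these fits are not given here.

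The largest differences by p between the concentrations were those of kdm2ba (log2 fold change 1.11, SE 0.21), hdac9b (0.95, SE 0.23), dnmt3ba (0.57, SE 0.16), kdm4aa (0.75, SE 0.22) and kmt2bb (-0.76, SE 0.22), with limma adjusted p from 0.077 to 0.084. For these 5 genes the groups did not overlap, kmt2bb with its lowest 0.1 µg/L library at 2246 and its highest 10 µg/L library at 2195. Of the DNA methyltransferases, dnmt3bb.1 (0.60) and dnmt3bb.2 (1.07) were also higher at 10 µg/L with non-overlapping groups and an unadjusted p under 0.05. Both Polycomb methyltransferases were lower at 10 than at 0.1 µg/L, ezh1 by a log2 fold change of -0.42 and ezh2 of -0.57 (limma adjusted p = 0.12 for each). Their groups did not overlap, but only by narrow margins. The highest 10 µg/L library was at 543.7 for ezh1 and 190.2 for ezh2, and the lowest 0.1 µg/L library at 548.4 and 190.5. For ezh1, the 0.1 µg/L libraries were above DMSO, the lowest at 548.4 against 547.6 for the highest control. Its 10 µg/L libraries were about level with DMSO, whereas for ezh2 the 10 µg/L libraries were below both other group means. tet3 (0.33), kdm2bb (0.64) and ENSDARG00000105159 (0.55) were higher, and setdb1a (-0.48) and kmt2cb (-0.43) were lower, at an unadjusted p under 0.05.

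Writers and erasers were then compared within each library, since library differences touch both. Both are families by symbol, so the writers here include kmt2e, setd3, setd4, setd5, setd6 and setd9, and the erasers include kdm8. The mean log2 level of the 31 writers, relative to the mean of all libraries, was -0.04, 0.13 and -0.13 in DMSO, 0.13, -0.15 and 0.02 at 0.1 µg/L and -0.13, 0.14 and 0.04 at 10 µg/L. For the 23 erasers it was -0.24, 0.10 and -0.14 in DMSO, 0.05, -0.11 and -0.03 at 0.1 µg/L and -0.0023, 0.17 and 0.21 at 10 µg/L. The mean of the erasers minus that of the writers was -0.20, -0.03 and -0.01 in DMSO, -0.08, 0.03 and -0.05 at 0.1 µg/L and 0.13, 0.03 and 0.17 at 10 µg/L. The difference was above zero in the 3 libraries at 10 µg/L, below zero in the 3 DMSO libraries, and above zero in 0.1 µg/L replicate 2 alone of its group, where it was close to that of 10 µg/L replicate 2. The KDM2 genes contribute to it, and their own mean is given above. Among the writers, the mean over DMSO, 0.1 and 10 µg/L libraries was -0.01, -0.20 and 0.21 for the 7 DNA methyltransferases. For the other 24 writers it was -0.02, 0.06 and -0.04. The genes are not replicates of a treatment, and no test was made on these means. Median log2 fold changes at 10 µg/L against DMSO were 0.07 for writers and 0.12 for erasers, beside 0.0065 over all genes. When each library was left out in turn, these medians ranged from -0.04 to 0.19 for writers and from 0.08 to 0.23 for erasers, so that the ranges overlapped. At 10 against 0.1 µg/L the medians were -0.05 for writers and 0.09 for erasers, beside 0.0028 over all genes.

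**Figure D4:**
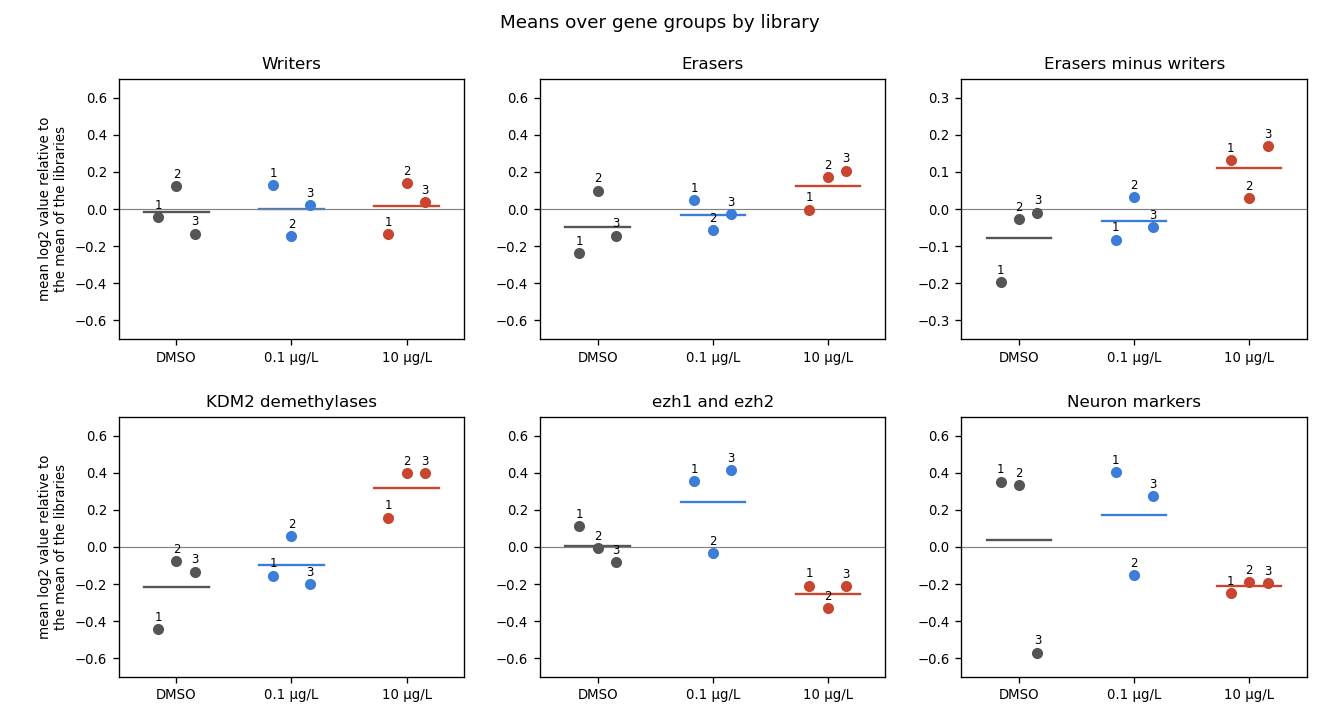
Mean log2 level over a group of genes in each library, relative to the mean of all libraries (vertical axis; the third panel is the difference of 2 such means and has a narrower axis); points are libraries labelled with the replicate number and lines are group means. Erasers minus writers and the KDM2 demethylases are higher in the 10 µg/L libraries than in DMSO, ezh1 and ezh2 are lower, and the neuron markers are low in DMSO replicate 3 (-0.57) and in the 10 µg/L libraries (-0.25 to -0.19).

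Among 11 pairs of duplicated copies, the copies differed most in log2 fold change at 10 µg/L for kmt2ba and kmt2bb (0.20 and -0.60), kdm6ba and kdm6bb (0.09 and -0.37), and kmt2ca and kmt2cb (-0.02 and -0.47). In each of these pairs the b copy carried the low values in DMSO replicate 3, 0.1 µg/L replicate 2 and the 10 µg/L libraries. kmt2ba had 432, 554 and 470.3 in DMSO and 483, 587 and 616 at 10 µg/L, kmt2ca had 430.4, 677 and 629 in DMSO and 545, 586 and 569.8 at 10 µg/L, and kdm6ba had 702, 1065 and 839 in DMSO and 750.3, 999.6 and 1039 at 10 µg/L. The copies differed least for dnmt3aa and dnmt3ab (-0.19 and -0.11), kdm7aa and kdm7ab (0.22 and 0.13), and kdm2ba and kdm2bb (1.12 and 0.90). The last pair is the only one of these in which both copies had an unadjusted p under 0.05. The pairs were chosen for these differences, which are therefore given without a test.

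Genes that work with these enzymes were counted in the same way at 10 µg/L against DMSO, and none passed an adjusted p of 0.05 in limma. The counts that follow are of genes at an unadjusted p under 0.05, which 13.1% of all genes had (7.91% higher and 5.21% lower). Of 19 Polycomb partners, 2 were higher and 2 lower (21.1%), and the median log2 fold change was 0.13. They included the copies of JARID2, an accessory subunit of Polycomb repressive complex 2, in opposite directions: jarid2a was higher (1.11) and jarid2b lower (-0.88). jarid2a had 69.7, 61.3 and 109 in DMSO, 26.0, 114 and 84.4 at 0.1 µg/L and 135, 217 and 167 at 10 µg/L, and jarid2b had 84.9, 114 and 76.5 in DMSO, 130.2, 45.2 and 109 at 0.1 µg/L and 53.3, 47.7 and 46.3 at 10 µg/L. Neither overlapped with DMSO at 10 µg/L, and 0.1 µg/L replicate 2 again lay on the side of the 10 µg/L libraries. Of 15 partners of the H3K4 methyltransferases in COMPASS complexes, none was higher and 3 were lower (median -0.09), among them dpy30 (-0.54), a core subunit, and psip1b (-0.95), a chromatin tether. Of 15 DNA methylation partners, 2 were higher and 2 lower (26.7%, median -0.05). Those with the smallest p were mbd5 (1.52, DESeq2 adjusted p = 0.0039) and mbd6 (1.15, with overlapping groups), of the methyl-CpG-binding domain family. mbd5 had 40.9, 70.7 and 98.8 in DMSO, 29.9, 107 and 45.6 at 0.1 µg/L and 177, 228 and 178 at 10 µg/L, with every 10 µg/L library above the others.

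Of 29 deacetylase corepressors, 2 were higher and 1 lower (10.3% against 13.1% of all genes, median 0.03). Those with the smallest p were brms1 (-0.65) of the SIN3 complex and gatad2b (1.55, with overlapping groups) of the NuRD complex. Of 9 other JmjC domain genes, a family that holds demethylases and other oxygenases, 1 was higher and none lower (11.1%, median -0.15). It was phf8 (1.41), which demethylates H3K9 and H4K20, with 56.1, 111 and 251 in DMSO, 46.9, 173 and 59.3 at 0.1 µg/L and 295, 362 and 287 at 10 µg/L, and riox1 (-0.40) was next by p. Of 19 other lysine methyltransferases, prdm2a (0.78) was higher and smyd1a (-0.49), a muscle methyltransferase, lower (10.5%, median -0.02). Of 15 acetyltransferases, 1 was lower (6.67%), kat5b under ENSDARG00000004587 (-0.50), followed by kat8 (-0.28), with a median of 0.03. The other gene with the symbol kat5b, ENSDARG00000045951, was at 0.05 with overlapping groups. None of the 7 sirtuins, the other family of deacetylases, had an unadjusted p under 0.05 (median -0.16), and sirt6 (-0.41) and sirt3 (-0.20) had the smallest. Of the cell type markers, none of 15 neuron markers had an unadjusted limma p under 0.05 at 10 µg/L against DMSO (median -0.27). By fitted value, 12 of the 15 were lower. At an unadjusted p under 0.05, DESeq2 had 3 and edgeR 2 of them, beside 2418 and 2505 of all 19610 genes. Of 15 markers of proliferating cells, 5 were higher at that threshold (33.3% against 7.91% of all genes), all of them MCM replication helicase genes led by mcm5 (0.70) and mcm2 (0.63), but the median was 0.02 and 7 of the 15 were lower by fitted value. At 10 against 0.1 µg/L, 10 of the 15 neuron markers were lower at an unadjusted p under 0.05 (66.7% against 11.5% of all genes, median -0.40), in the comparison in which ezh1, ezh2, kmt2bb and kmt2cb were lower, and the part of these markers in those differences was not tested.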

How the data were processed

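RNA-seq of whole larvae gave 9 libraries, 3 per group, assigned to groups by the submitters' sample labels. The authors enriched poly(A) RNA with a directional kit, trimmed reads (Trimmomatic 0.36), mapped them to GRCz10 (STAR 2.5.2b) and counted unique exonic reads per gene (featureCounts, Subread 1.5.2). The deposited values are a signal in normalised reads, that is, read counts divided by a DESeq2 size factor, set separately for the table of each concentration, so that the same DMSO libraries appear in both on different scales. A value was called whole reads within a tolerance of 0.01 of a whole multiple of 1 read, and 100.0% of values were, so reads could be recovered. The values of each library in the text are recovered reads divided by size factors set over the 9 libraries.

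The fit for each concentration against DMSO was made within its own table, and 10 against 0.1 µg/L on the common scale, over 19130 genes in both tables before filtering. Genes with a mean of at least 10 were tested with limma 3.58.1 (trend) on log2(value + 1), two-sided, with Benjamini-Hochberg adjustment over all genes tested. Fold changes are on that scale, which understates changes of low genes. Alternatives were another pseudocount or minimum, TMM or quantile normalization, no trend, count tests of the recovered reads (edgeR 4.0.16, DESeq2 1.42.0), a block for the replicate number, the first sequencing index as a covariate (indexes from the study's library sheet), and each library left out. Scripts were tested on simulated data.

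Each library is a separate beaker, so p-values measure the spread between beakers. The enzymes, roles and partner lists were chosen with earlier results of these data known. Roles were assigned from textbook knowledge by symbol. Genes named were those with an unadjusted p under 0.05 at 10 µg/L against DMSO, the 5 with the smallest p in the other comparisons, all dnmt, tet and ezh genes, hdac1, hdac3 and hdac8, the 3 most and 3 least different pairs of copies, and the 2 partners with the smallest p in each list. Other enzymes are named with a value to account for every gene. All 66 IDs were found in the gene name table, 51 under the same symbol. RefSeq neighbours are from the GRCz12tu assembly. No sequence is shown, and the columns of the authors' own comparisons were not used.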

Additional observations from a re-analysis of the deposited data

How the results depend on the processing

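Depth of 14491289 reads on genes or more left few reads on tet1, dnmt3aa, dnmt3bb.2, hdac7b and kmt5ab, for which the SE was large. Over the settings tried, 243 values for counts and medians of the families stayed close to the main value (counts within 1.5 times, medians within the spread between libraries), and 25 did not. For named genes, 1545 log2 fold changes stayed within the spread between libraries and 23 moved beyond it. Another 28 passed the adjusted threshold in the other setting and not in the main fit. Of the named genes with an unadjusted p under 0.05 in either fit, 1 turned: kmt2bb at 10 µg/L was 0.054 with the first index as covariate. Log2 fold changes without such a p also turned under some settings, among them kdm6bb at 10 µg/L (0.22 with that covariate). With that covariate, the median log2 fold change of deacetylases was 0.046 at 0.1 µg/L and 0.16 at 10 µg/L, and the count at an unadjusted p under 0.05 at 0.1 µg/L was 3. This count was 0 with a pseudocount of 5, without a trend, and without ENSDARG00000105159 among the enzymes, a setting chosen after seeing the data. With DESeq2, 2 genes passed the adjusted threshold at 10 µg/L and 5 at 10 against 0.1 µg/L.

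When each library was left out in turn, the counts at an unadjusted p under 0.05 ranged from 0 to 1 at 0.1 µg/L. They ranged from 2 to 9 at 10 µg/L, and between 8 and 18 when the concentrations were compared. Shares of all genes at that threshold in these fits are not given here. These counts alone therefore do not tell a shift of these enzymes from one over all genes. The counts at an adjusted p under 0.05 (limma) ranged from 0 to 6 at 10 µg/L. The 6 were without DMSO replicate 3, where 11.2% of all genes passed. At 10 against 0.1 µg/L the counts ranged from 0 to 13, the 13 without 0.1 µg/L replicate 2, where 27.0% of all genes passed. At 0.1 µg/L the median log2 fold change ranged from -0.051 to 0.18 for erasers and from -0.24 to -0.021 for deacetylases. At 10 µg/L it ranged from -0.16 to 0.028 for deacetylases, from -0.04 to 0.19 for writers and from 0.08 to 0.23 for erasers. At 10 against 0.1 µg/L it ranged from -0.090 to 0.095 for writers and from -0.017 to 0.23 for deacetylases. The cause of these shifts was not tested.

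Correlations of deviations between libraries of the same replicate number ran from -0.36 to 0.28. With 3 libraries per group, they cannot decide whether that number pairs the libraries. In a fit with this number as a replicate block, 3 of these enzymes passed the adjusted threshold in limma at 10 against 0.1 µg/L. They were kdm2ba, hdac9b and kmt2bb, beside 740 of all genes (3.9%). Against DMSO in this fit, 0 of these enzymes passed at either concentration. The share of all genes passing there is not given here, so these counts do not set the enzymes apart from other genes.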
